A study of Mus musculus with 18 samples.

Results

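The transcripts described here are those of Foxp3 and of the Ikaros family of zinc finger transcription factors, Ikzf1 (Ikaros), Ikzf2 (Helios), Ikzf3 (Aiolos), Ikzf4 (Eos) and Ikzf5 (Pegasus), in regulatory and conventional CD4 T cells of mouse fat, lymph nodes and thymus. These 6 genes, of 18193 genes with a probe set on the array, were chosen by name. They carry 14 of the 45101 probe sets, and each gene was read from its probe set with the highest mean over the 18 Affymetrix M430v2 arrays. Each tissue gave 3 arrays of CD4+ CD25+ cells, called Treg here, and 3 of CD4+ CD25- cells, called Tconv, all sorted without B220+, CD11b+ and CD8a+ cells. Fat cells were sorted from the epididymal depot of male C57Bl/6 mice aged 25 to 35 weeks, with 8 to 10 mice pooled per array and TCRb+ as a further gate. Lymph node cells were from cervical, inguinal and mesenteric nodes of C57BL/6 mice aged 32 to 36 weeks, with 3 to 6 mice per array. Thymus cells came from BDC2.5/NOD mice, a line on the NOD background that carries a transgenic T cell receptor, aged 4 to 6 weeks, also 3 to 6 per array and depleted of CD8a+ cells before the sort. The mice had no treatment named in the labels, and a sex is given for the fat mice alone. Tissue therefore cannot be told apart from strain and age in thymus against lymph node, and a replicate is a pool, so every error here is a spread between pools of mice.

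Foxp3 is a forkhead protein on which the identity of regulatory T cells depends, and its loss causes fatal autoimmunity in mice and humans. Ikaros family proteins bind DNA through zinc fingers, pair with each other through their C-terminal fingers, and recruit chromatin remodelling and repressor complexes. In T cells, Helios is abundant in Treg of thymic origin, Eos has been described as a corepressor partner of Foxp3, Ikaros is needed for lymphocyte development, and Aiolos has been tied to B cell maturation and to silencing of Il2 in helper cells.

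The promoter windows of Foxp3 and Ikzf1 are shown because the transcripts of these genes differed in opposite directions between Treg and Tconv. They are RefSeq windows of build GRCm38.p6, each with 250 bases before an annotated transcription start and 50 after it, and 3 of the 6 genes (Foxp3, Ikzf1 and Ikzf5) matched the table. Capitals mark the Ikaros core letters TGGGAA on either strand.
Foxp3 start 1, chrX:7579426-7579725, plus strand: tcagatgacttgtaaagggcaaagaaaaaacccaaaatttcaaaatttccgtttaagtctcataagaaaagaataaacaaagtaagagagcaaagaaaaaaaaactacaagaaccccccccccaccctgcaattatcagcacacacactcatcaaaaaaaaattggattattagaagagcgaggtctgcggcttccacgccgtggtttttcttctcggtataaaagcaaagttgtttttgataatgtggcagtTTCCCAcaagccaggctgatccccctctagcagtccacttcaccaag
Foxp3 start 2, chrX:7580233-7580532, plus strand: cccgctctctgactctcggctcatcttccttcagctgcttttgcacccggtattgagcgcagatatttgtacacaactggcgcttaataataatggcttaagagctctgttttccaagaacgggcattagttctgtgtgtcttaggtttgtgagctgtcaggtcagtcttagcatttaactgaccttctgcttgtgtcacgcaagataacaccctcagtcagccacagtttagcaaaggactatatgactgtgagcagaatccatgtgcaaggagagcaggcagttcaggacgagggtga
Ikzf1 start 1, chr11:11685675-11685974, plus strand: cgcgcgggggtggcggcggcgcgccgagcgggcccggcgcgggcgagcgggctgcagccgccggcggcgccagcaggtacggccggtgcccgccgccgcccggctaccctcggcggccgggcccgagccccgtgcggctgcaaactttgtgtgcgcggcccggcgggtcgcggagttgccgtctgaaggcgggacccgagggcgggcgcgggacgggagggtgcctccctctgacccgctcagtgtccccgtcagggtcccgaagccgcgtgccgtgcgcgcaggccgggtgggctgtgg
Ikzf1 start 2, chr11:11689927-11690226, plus strand: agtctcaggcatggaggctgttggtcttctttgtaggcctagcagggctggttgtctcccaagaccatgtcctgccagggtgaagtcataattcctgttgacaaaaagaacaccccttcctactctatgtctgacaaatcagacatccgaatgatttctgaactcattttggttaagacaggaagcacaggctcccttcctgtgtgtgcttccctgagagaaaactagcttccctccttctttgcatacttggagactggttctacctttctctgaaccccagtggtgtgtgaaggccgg
The Ikaros core occurred in 1 of these 4 windows, at base 254 of Foxp3 start 1, just past the start. It occurs in 25.6% of all 32851 windows of this length, so 1 match is no departure from the background. The forkhead core TGTTTAC (3.65% of windows), the Runx core TGTGGT (16.8%) and the cyclic AMP element TGACGTCA (1.79%) were in none of the 4. The STAT motif TTCNNNGAA (8.30% of windows) occurred once in Foxp3 start 2 and once in Ikzf1 start 2, and the NFAT core TGGAAA (21.4%) once in Foxp3 start 2. All motifs were searched on both strands, and the STAT and NFAT matches of Foxp3 start 2 overlapped each other. The windows differed in base composition: Ikzf1 start 1 was 81.3% G or C with 52 CpG, a richer window than 99.3% of all, and Foxp3 start 1 was 40.7% G or C with 6 CpG, against a median of 52.7% over all windows.

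Values are RMA intensities on a linear scale. The medians of the 6 fat arrays were 76.9 to 82.2, above the 57.9 to 63.0 of the other 12, so differences between tissues were computed after quantile normalization of all 18 arrays, and differences between Treg and Tconv of a tissue on the deposited values. All 6 genes passed the filter on dim signals (a group mean above 65.9), as did 12821 genes in all. A gene was called at an adjusted p under 0.05 (limma, Benjamini-Hochberg over those genes), and changes are log2 fold changes ± SE. All 6 matched T cell marker genes of 7 were above that filter level in every group. The 5 Treg marker genes other than Foxp3 and its family (Il2ra, Ctla4, Tnfrsf18, Tnfrsf4 and Nrp1) summed to 22302 to 26668 in fat Treg against 4746 to 7099 in fat Tconv, to 10915 to 12317 in lymph node Treg against 1543 to 2203 in Tconv, and to 6797 to 12446 in thymus Treg against 1376 to 1609 in Tconv. In fat 4 of these 5 were called higher in Treg, against 11.5% of all genes in either direction, and all 5 in lymph node and thymus (4.32% and 4.98%). Nrp1 averaged 1983 in fat Treg against 1748 in fat Tconv. Il2ra encodes CD25, the sort marker. The sort did not use Foxp3, and in bulk RNA of sorted cells a smaller share of expressing cells and less RNA per cell cannot be told apart.

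The first comparison set Treg against Tconv within each tissue. In fat, 3 of the 6 genes were higher and 1 lower in Treg, where 11.5% of all tested genes were called (1476, or 2652 with the replicate pair as a block). In lymph node 4 were higher, against 4.32% of all genes (554, or 1028 with the block), and in thymus 4 were higher, against 4.98% (638, or 1528 with the block). Foxp3, Ikzf2 and Ikzf4 were higher in Treg of all 3 tissues, Ikzf3 in lymph node and thymus, and Ikzf1 was lower in Treg of fat. With the block, Ikzf1 was also called lower in Treg of lymph node and thymus (adjusted p = 0.00187 and 0.00278, limma). Ikzf5 was called in none.

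**Figure D1:**
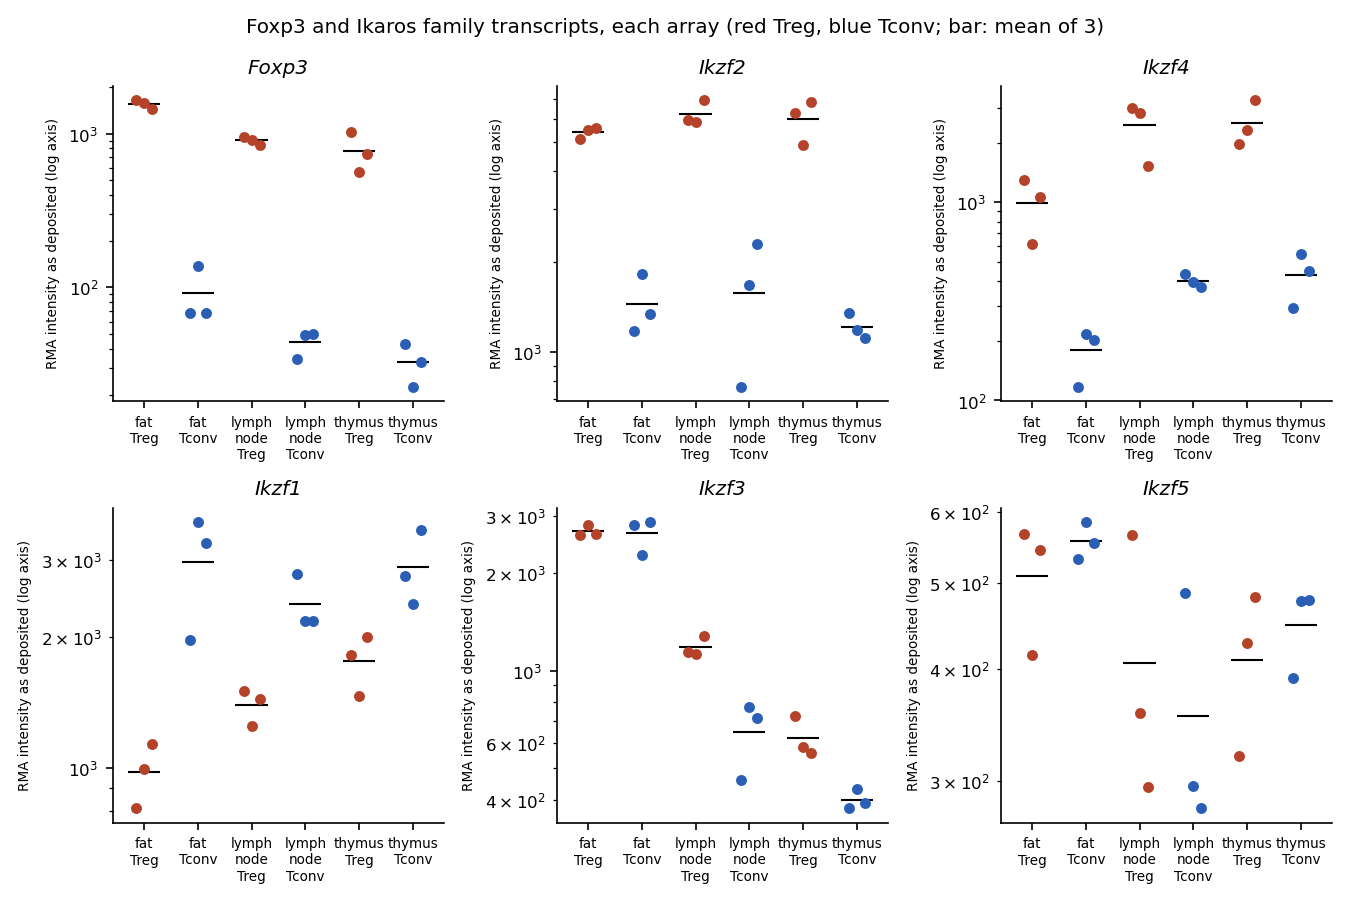
RMA intensity of the 6 genes on each of the 18 arrays, on log axes. Each point is an array, red for Treg and blue for Tconv, and the bar is the mean of 3. Foxp3, Ikzf2 and Ikzf4 separate Treg from Tconv in every tissue, Ikzf1 runs the other way, and Ikzf3 lies highest in both cell types of fat.

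Foxp3, the lineage factor, had a single probe set (1420765_a_at). Its intensity was 1644, 1579 and 1452 on the 3 fat Treg arrays, against 68.3, 138 and 67.9 on the 3 fat Tconv arrays. In lymph node it was 955, 905 and 844 in Treg, against 34.3, 49.1 and 49.9 in Tconv. In thymus it was 1024, 560 and 737 in Treg, against 42.7, 22.6 and 32.6 in Tconv. Every Treg array of the series lay above every Tconv array, and the highest Tconv value, 138, was a fat array whose Treg partner was not unusual. Log2 changes were 4.18 ± 0.28 in fat (18.1-fold, adjusted p = 1.11e-08), 4.36 ± 0.28 in lymph node (20.6-fold, adjusted p = 3.03e-08) and 4.57 ± 0.28 in thymus (23.8-fold, adjusted p = 1.43e-08). The Tconv arrays of lymph node and thymus were all below the filter level of 65.9, and the files carry no detection call, so the size of these folds rests on dim values. The Treg effects of the tissues were not separable: fat minus lymph node was -0.19 (95% interval -1.01 to 0.64, adjusted p = 0.903) and thymus minus lymph node 0.21 (-0.62 to 1.04, adjusted p = 1.00). On the quantile scale the order of levels began with thymus, lymph node and fat Tconv. Neighbours among these overlapped, but thymus Tconv (at most 46.2) and fat Tconv (at least 53.7) did not. Above them came thymus and lymph node Treg, which overlapped, with fat Treg apart at the top.

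Ikzf2 encodes Helios, whose transcript marks most thymus-derived Treg. Its intensity (1437542_at) was 5134, 5494 and 5564 in fat Treg, against 1179, 1818 and 1343 in fat Tconv. It was 5929, 5866 and 6904 in lymph node Treg, against 766, 1669 and 2297 in Tconv. It was 6274, 4898 and 6823 in thymus Treg, against 1345, 1182 and 1112 in Tconv. Treg and Tconv did not overlap in any tissue, and lymph node Tconv had the widest spread, with a highest array 3.00 times the lowest. The log2 changes were 1.92 ± 0.28 in fat (3.79-fold, adjusted p = 0.000104), 2.12 ± 0.28 in lymph node (4.34-fold, adjusted p = 0.000103) and 2.30 ± 0.28 in thymus (4.91-fold, adjusted p = 4.18e-05). On the quantile scale the 3 Tconv groups overlapped at the bottom, fat Treg lay apart above them, and thymus and lymph node Treg overlapped at the top. Unlike Foxp3, Helios transcript stood well above the filter level in Tconv, at a group mean of at least 1213. A second bright probe set, 1456956_at, gave 2.98 in fat, 2.73 in lymph node and 2.70 in thymus, each called.

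Ikzf4 encodes Eos, described in mice as a partner through which Foxp3 silences genes. Its intensity (1457342_at) was 1290, 616 and 1061 in fat Treg, against 117, 217 and 203 in fat Tconv. It was 2987, 2824 and 1531 in lymph node Treg, against 437, 397 and 374 in Tconv. It was 1967, 2331 and 3275 in thymus Treg, against 292, 547 and 451 in Tconv. The groups did not overlap within any tissue, while fat was low in both cell types, and 1 fat Treg array, at 616, lay close to the highest thymus Tconv array, at 547. Log2 changes were 2.45 ± 0.32 in fat (5.47-fold, adjusted p = 3.69e-05), 2.55 ± 0.32 in lymph node (5.84-fold, adjusted p = 7.08e-05) and 2.57 ± 0.32 in thymus (5.93-fold, adjusted p = 6.08e-05). Within the 3 fat pairs the change ranged more widely than in the other tissues, at 3.46, 1.51 and 2.39.

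Ikzf1 encodes Ikaros, the founding member of the family. Its intensity (1436312_at) was 810, 999 and 1135 in fat Treg, against 1972, 3670 and 3275 in fat Tconv. It was 1506, 1248 and 1442 in lymph node Treg, against 2788, 2173 and 2173 in Tconv. It was 1816, 1466 and 1996 in thymus Treg, against 2765, 2379 and 3517 in Tconv. All 3 Treg arrays lay below all 3 Tconv arrays in each tissue. The fall in fat Treg was -1.56 ± 0.22 (2.96-fold lower, adjusted p = 6.62e-05). In lymph node the difference was -0.76 ± 0.22, with adjusted p = 0.0609, or 0.00187 with the Treg and Tconv arrays of a number as a block. In thymus it was -0.71 ± 0.22, with adjusted p = 0.0767, or 0.00278 with that block. Within pairs, Ikaros differed by -1.28, -1.88 and -1.53 in fat, by -0.89, -0.80 and -0.59 in lymph node and by -0.61, -0.70 and -0.82 in thymus, so that each fat pair differed by more than each pair of the other tissues. The difference between the fat and lymph node effects was -0.80 ± 0.31 (adjusted p = 0.196, or 0.0115 with the block). Without the first fat Tconv array, which had the lowest Ikaros value of its group, that difference was -1.07 (adjusted p = 0.0219).

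Ikzf3 encodes Aiolos, the closest relative of Ikaros. Its intensity (1436649_at) was 2613, 2799 and 2640 in fat Treg, against 2804, 2272 and 2870 in fat Tconv. It was 1137, 1122 and 1277 in lymph node Treg, against 460, 771 and 714 in Tconv. It was 727, 581 and 559 in thymus Treg, against 377, 432 and 391 in Tconv. Treg lay above Tconv without overlap in lymph node and thymus, whereas the fat groups overlapped. Aiolos was higher in lymph node Treg by 0.90 ± 0.17 (1.86-fold, adjusted p = 0.00361) and in thymus Treg by 0.63 ± 0.17 (1.55-fold, adjusted p = 0.0410). The thymus call was lost without any 1 of 5 of the 6 thymus arrays, the exception being the third Treg array, with adjusted p from 0.0720 to 0.195. In fat the change was 0.03 ± 0.17 (95% interval -0.34 to 0.39, adjusted p = 0.970). The Treg effect in fat was smaller than that in lymph node by -0.87 ± 0.24 (adjusted p = 0.0485), the sole call among the 6 genes in a contrast where 4.85% of all genes were called (622, or 1416 with the block). That call rested on all 4 groups: it was lost without any 1 of 9 of the 12 arrays, the value then running from -0.64 to -0.90, the highest adjusted p being 0.129. With the block it was kept, at adjusted p = 0.0249. For thymus minus lymph node the same difference was -0.27 ± 0.24, and none of the 6 genes was called there by limma, with 0 of 6 at an unadjusted p under 0.05, against 0.304% of all genes (39, or 136 with the block).

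Ikzf5 encodes Pegasus, a more distant member that binds other DNA letters than Ikaros does. Its intensity (1429431_at) was 567, 415 and 544 in fat Treg against 531, 585 and 554 in fat Tconv. It was 566, 358 and 296 in lymph node Treg against 487, 296 and 280 in Tconv, and 320, 429 and 482 in thymus Treg against 392, 477 and 478 in Tconv. The groups overlapped in every tissue. The log2 changes were -0.14 ± 0.24 in fat, 0.19 ± 0.24 in lymph node and -0.14 ± 0.24 in thymus (adjusted p = 0.849, 0.937 and 0.875), with 95% intervals that reach from -0.65 to 0.69.

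**Figure D2:**
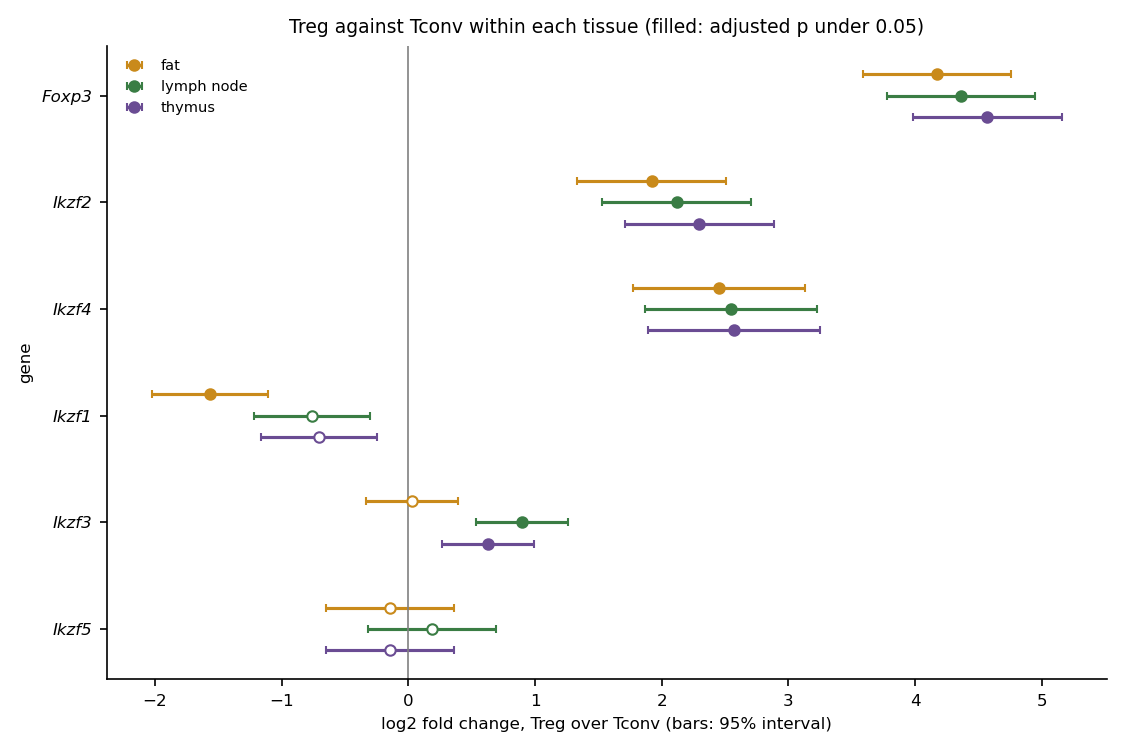
Log2 fold change of Treg over Tconv for the 6 genes in fat, lymph node and thymus, with 95% intervals from limma; filled points have an adjusted p under 0.05. The intervals of the 3 tissues overlap for every gene but Ikzf3, whose fat interval lies below that of lymph node, and Ikzf1 has its lowest value in fat.

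The second comparison set fat against lymph node within a cell type. In Treg, 1 of the 6 genes was higher and 2 were lower in fat, in a contrast where 34.2% of all genes were called (4391). In Tconv, 1 was higher and 1 lower, where 22.5% were called (2885, or 1405 with the replicate number as a block). Replicate numbers pair nothing between tissues, and with the blocks of array file numbers described below 2987 were called in Tconv. With the background this high, a single call says little of a gene beyond its size. On the deposited scale all genes together were shifted upward in fat by a median of 0.37 in Treg and 0.33 in Tconv; after quantile normalization the medians were 0.01 and -0.03, and the values below are relative to those.

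Aiolos was the member higher in fat. On the quantile scale its intensity was 2120, 2359 and 2159 in fat Treg, against 1156, 1169 and 1547 in lymph node Treg. It was 2475, 1947 and 2352 in fat Tconv, against 461, 857 and 872 in lymph node Tconv. No array overlapped, and the gap was wider in Tconv. Ikzf3 rose by 0.79 ± 0.20 in Treg (1.73-fold, adjusted p = 0.00637) and by 1.68 ± 0.20 in Tconv (3.20-fold, adjusted p = 1.53e-05). Ordered by mean, Aiolos was lowest in thymus Tconv, then thymus Treg and lymph node Tconv, whose arrays overlapped, then lymph node Treg, and highest in fat Treg and fat Tconv, which overlapped.

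Eos, read from its brightest probe set, was lower in fat in both cell types. Its quantile-scale intensity was 1080, 561 and 900 in fat Treg, against 3208, 3100 and 1815 in lymph node Treg. It was 97.6, 179 and 173 in fat Tconv, against 436, 441 and 452 in lymph node Tconv. The fat arrays lay below the lymph node arrays of the same cell type without overlap. Ikzf4 fell by 1.68 on the log2 scale in Treg (SE 0.30, 3.21-fold lower, adjusted p = 0.000289) and fell by 1.62 in Tconv (SE 0.30, 3.06-fold lower, adjusted p = 0.000741). Fat Treg arrays did not separate from thymus Tconv arrays in the order of levels, while lymph node and thymus Treg stood together at the top. Of the other Eos probe sets, 1438274_at gave -1.31 in Treg and -0.15 in Tconv (adjusted p = 0.000569 and 0.714, limma), and 1460664_at gave -0.04 and -0.06.

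Ikaros was lower in fat Treg than in lymph node Treg. Its quantile-scale intensity was 705, 894 and 967 in fat Treg, against 1544, 1312 and 1737 in lymph node Treg, and 1841, 3086 and 2683 in fat Tconv, against 2887, 2468 and 2597 in lymph node Tconv. The Treg groups did not overlap and the Tconv groups did. Ikzf1 fell by 0.84 on the log2 scale in Treg (SE 0.19, 1.79-fold lower, adjusted p = 0.00271), and the Tconv difference was -0.09 ± 0.19 (adjusted p = 0.789). On the deposited values the Treg difference was -0.52 (adjusted p = 0.0515). Fat Treg was the lowest of the 6 groups for Ikaros, apart from all others, and each other group overlapped the next in order.

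For Foxp3 and Helios the Treg of fat and lymph node also lay apart, without a call in the fit of all 18 arrays. Foxp3 was 1364, 1367 and 1214 in fat Treg, against 974, 936 and 1006 in lymph node Treg, a difference of 0.43 ± 0.27 (adjusted p = 0.233). Helios was 3971, 4344 and 4309 in fat Treg, against 6378, 6621 and 8105 in lymph node Treg, a difference of -0.73 ± 0.31 (adjusted p = 0.0767). Neither pair of groups overlapped, Foxp3 being higher and Helios lower in fat. In this contrast 34.2% of all genes were called, and the share of all genes without overlap was not counted. The separation therefore cannot be read as particular to Foxp3 or Helios. The fit pools the spread of all 6 groups, and fitted on the 6 Treg arrays alone the adjusted p was 0.0262 for Foxp3 and 0.0036 for Ikzf2. On the deposited values the Foxp3 difference was 0.79 (adjusted p = 0.0233). In Tconv, Foxp3 differed by 0.57 ± 0.27 (adjusted p = 0.149), or by 0.98 on the deposited values (adjusted p = 0.0105), and Helios by -0.33 ± 0.31 (adjusted p = 0.498). Without the first lymph node Tconv array, whose Helios value was the lowest, the Helios difference in Tconv was -0.86 (adjusted p = 0.00782), and without the third, whose value was the highest, it was 0.068 (adjusted p = 0.899). Pegasus differed by 0.12 ± 0.20 in Treg (adjusted p = 0.675) and 0.38 ± 0.20 in Tconv (adjusted p = 0.213). On the deposited values the Tconv difference of Ikzf5 was 0.70 (adjusted p = 0.0277).

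Array file numbers fall in blocks, 3 of which hold fat and lymph node arrays together, and fat was set against lymph node within each. In Treg, Eos differed by -1.83, -2.47 and -0.75, Ikaros by -0.67, -0.55 and -1.30, Aiolos by 0.90, 1.01 and 0.45, Helios by -0.57, -0.61 and -1.03 and Foxp3 by 0.32, 0.55 and 0.44. In Tconv, Aiolos differed by 2.35, 1.18 and 1.505 and Eos by -1.34, -1.30 and -2.21. These differences kept their direction in all 3 blocks. Others did not: Helios in Tconv differed by 0.54, -0.26 and -1.28, Ikaros in Tconv by -0.11, 0.32 and -0.50, and Pegasus by -0.25, 0.06 and 0.56 in Treg and -0.08, 0.56 and 0.65 in Tconv. With the file block in the fit, Foxp3 and Ikzf2 were called in Treg (adjusted p = 0.0322 and 0.00968). Foxp3 in Tconv, at 0.56, 1.11 and 0.06, nearly lost its difference in the last.

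Transcripts of other cell types differed between fat and lymph node on the same arrays. The sums and means below are of deposited intensities, which hold the upward shift of the fat arrays, while calls are from the quantile scale. All 9 macrophage and monocyte markers were matched, 6 of 8 tested were higher in fat Treg and 4 of 8 in fat Tconv, where 34.2% and 22.5% of all genes were called in either direction, and they summed to 1170 to 3354 in fat Treg against 535 to 678 in lymph node Treg, and to 883 to 2518 in fat Tconv against 542 to 691 in lymph node Tconv. The 5 matched adipocyte markers of 6 summed to 2173 to 3116 in fat Treg against 107 to 125 in lymph node Treg, and to 1749 to 3025 in fat Tconv against 104 to 132 in lymph node Tconv. Nearly all of the adipocyte sum was Fabp4, at a mean of 2529 in fat Treg against 7.7 in lymph node Treg, while the defining adipocyte transcript Adipoq averaged 86.8 against 13.6. The 7 matched B cell markers of 8 summed to 890 to 1028 in fat Treg against 1003 to 1470 in lymph node Treg, and to 918 to 1114 in fat Tconv against 952 to 1435 in lymph node Tconv. The 4 matched CD8 T and NK cell markers of 5 summed to 347 to 397 in fat Treg against 229 to 273 in lymph node Treg, and to 457 to 622 in fat Tconv against 495 to 766 in lymph node Tconv. On the quantile scale the 3 of them that were tested had a median log2 change of -0.06 in Treg and -0.27 in Tconv. The part of these other cell types in the differences of the 6 genes was not tested.

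**Figure D3:**
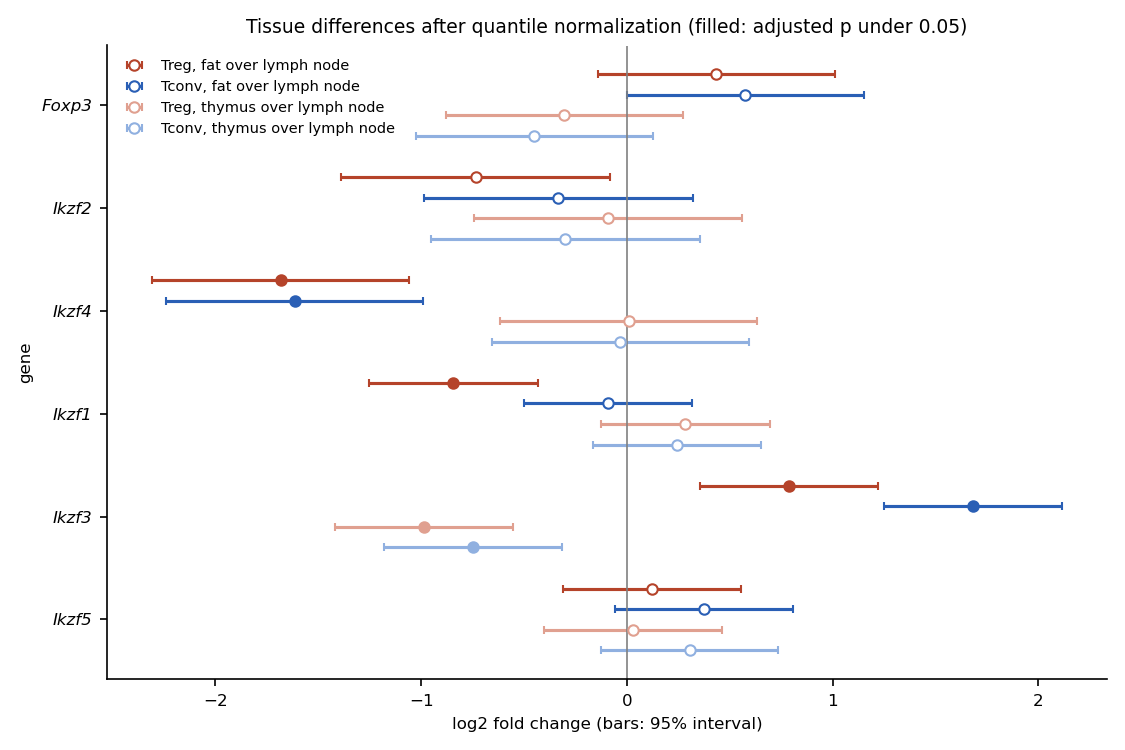
Log2 fold change of fat over lymph node and of thymus over lymph node, in Treg and in Tconv, for the 6 genes after quantile normalization, with 95% intervals from limma; filled points have an adjusted p under 0.05. Ikzf4 lies left of 0 and Ikzf3 right of 0 in fat for both cell types, and Ikzf3 lies left of 0 in thymus.

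The third comparison set thymus of young BDC2.5/NOD mice against lymph node of older C57BL/6 mice. In Treg, 1 of the 6 genes was called, lower, against 11.9% of all genes (1520, or 767 with the replicate number as a block, which pairs nothing between tissues). In Tconv, 1 was called, also lower, against 8.89% (1140). Both calls were Aiolos. Its quantile-scale intensity was 761, 619 and 572 in thymus Treg, against 1156, 1169 and 1547 in lymph node Treg. It was 407, 445 and 401 in thymus Tconv, against 461, 857 and 872 in lymph node Tconv. The groups did not overlap in either cell type, although the first lymph node Tconv array stood close to thymus. Ikzf3 fell by 0.99 on the log2 scale in Treg (SE 0.20, 1.98-fold lower, adjusted p = 0.0037) and by 0.75 in Tconv (SE 0.20, 1.68-fold lower, adjusted p = 0.0278). The Tconv call was lost without any 1 of 5 of the 6 arrays, all but the first lymph node Tconv array, with adjusted p up to 0.153. With the replicate number as a block the Tconv value had adjusted p = 0.0873.

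The other members lay near their lymph node levels in thymus. Foxp3 differed by -0.30 ± 0.27 in Treg and -0.45 ± 0.27 in Tconv (adjusted p = 0.612 and 0.403). Helios differed by -0.09 ± 0.31 and -0.30 ± 0.31, Eos by 0.01 ± 0.30 and -0.03 ± 0.30, Ikaros by 0.28 ± 0.19 and 0.24 ± 0.19, and Pegasus by 0.03 ± 0.20 and 0.30 ± 0.20, in Treg and then Tconv. The groups overlapped in each of these comparisons, and the adjusted p values were 0.403 and above. Without the first lymph node Tconv array, Helios in Tconv differed by -0.82 (adjusted p = 0.0179), and without the third by 0.103 (adjusted p = 0.934), so that its sign rests on single arrays. All 7 immature thymocyte markers were matched and summed to 1826 to 7466 in thymus Treg against 408 to 556 in lymph node Treg, and to 1811 to 4290 in thymus Tconv against 618 to 750 in lymph node Tconv. Of the 6 tested, 4 were called higher in thymus in each cell type. Over all genes, 11.9% were called in Treg and 8.89% in Tconv, in either direction. Dntt, which adds bases at receptor gene joints in thymocytes, averaged 2367 in thymus Treg against 99.8 in lymph node Treg. Cd8a of the same list went the other way, at 82.7 against 109.3. The B cell markers summed to 663 to 748 in thymus Treg against 1003 to 1470 in lymph node Treg. Their part in the Aiolos difference was not tested.

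The other probe sets of the 5 family genes agreed in part. For Eos, 1438274_at was higher in Treg by 1.19 ± 0.22 in fat, 2.48 ± 0.22 in lymph node and 2.24 ± 0.22 in thymus, each called over all 45037 probe sets that were not controls. With that probe set the Treg effect of Ikzf4 was smaller in fat than in lymph node by -1.29 ± 0.31 (adjusted p = 0.0331), which the brighter one, at -0.10 ± 0.46, did not show, and its fat minus lymph node difference was -1.31 (adjusted p = 0.000569) in Treg and -0.15 (adjusted p = 0.714) in Tconv. The pair thus disagree on whether Eos was lower in Tconv of fat. The remaining Eos probe set, 1460664_at, stayed between 133 and 199 on all arrays and separated nothing. For Ikaros, 1421303_at was dim, at 72.2 to 135, and differed between Treg and Tconv by 0.21 ± 0.11 in fat (adjusted p = 0.409), against the fall of the bright probe set. For Aiolos, 1441088_at and 1453378_at reached 138 and 114 at most. Both were higher in fat Treg than in lymph node Treg, by 0.65 ± 0.11 and 0.51 ± 0.17, as the bright probe set was. In Tconv they gave 0.51 and 0.31 (adjusted p = 0.00306 and 0.246, limma), less than the 1.68 of the bright one. Neither was called for the Treg effect in lymph node (0.13 and 0.50, adjusted p = 0.938 and 0.266). Nor was either called in Treg of thymus against lymph node (-0.13 and -0.11, adjusted p = 0.690 and 0.889). In fat, 1453378_at gave a Treg effect of 0.73 ± 0.18 (adjusted p = 0.0169), where the bright one gave 0.03. For Helios, the dim 1421643_at, at 26.1 to 92.4, was higher in fat than in lymph node Treg by 0.59 ± 0.15 (adjusted p = 0.0075), opposite in sign to the brighter ones. For Pegasus, 1436554_at was higher in fat than in lymph node by 0.72 ± 0.13 in Treg (adjusted p = 7e-04) and 1.11 ± 0.13 in Tconv (adjusted p = 2.38e-05), where the brighter one was not called.

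**Figure D4:**
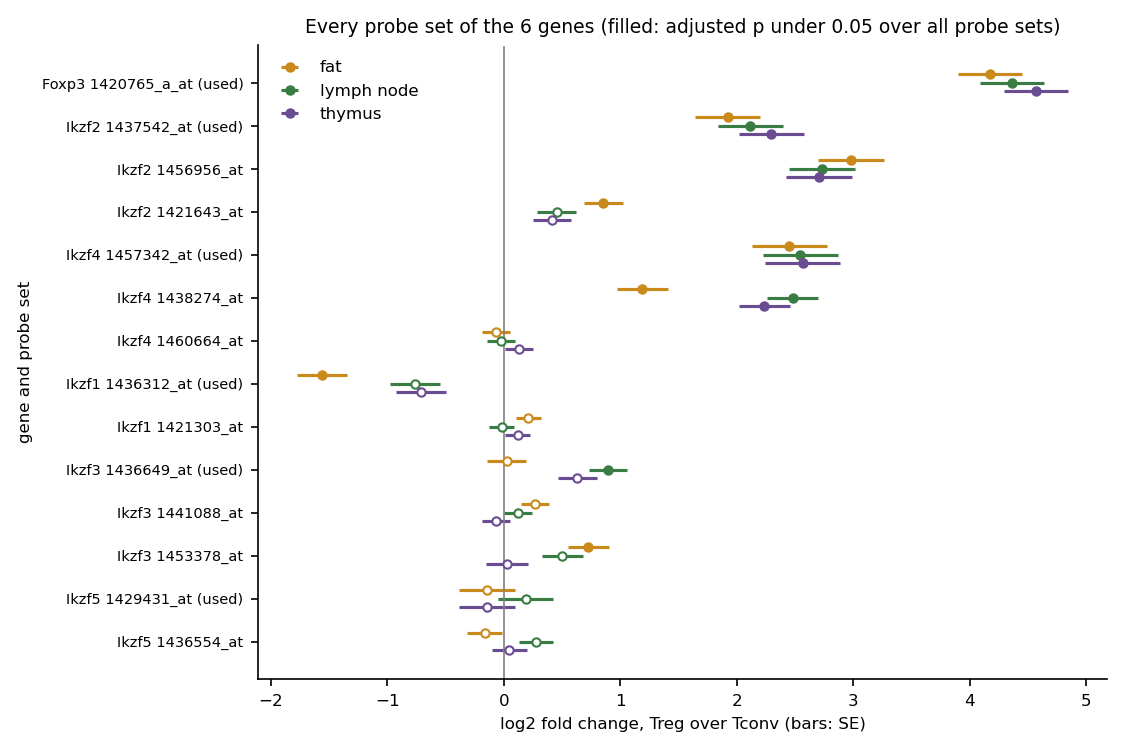
Log2 fold change of Treg over Tconv for all 14 probe sets of the 6 genes in fat, lymph node and thymus, with bars of 1 SE; filled points have an adjusted p under 0.05 over 45037 probe sets. The probe sets used in the text are marked, and the dimmer 1421303_at of Ikzf1 and 1460664_at of Ikzf4 lie near 0 where the bright ones do not.

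The 6 genes did not vary as one group over the arrays. Foxp3 and Ikzf2 had a Pearson correlation of 0.95 over the 18 arrays, Ikzf2 and Ikzf4 of 0.83, and Foxp3 and Ikzf4 of 0.74. Foxp3 and Ikzf1 had -0.82. Ikzf3 and Foxp3 had 0.46, and Ikzf5 lay between -0.18 and 0.37 with every other member. These values describe 6 groups of 3 arrays that share cell type, tissue and processing, not independent samples. The genes most like Foxp3 were Il2ra (0.99), the sort marker, Ebi3 (0.97), which encodes a subunit of interleukin-35, Ikzf2, Tnfrsf4 (0.95), which encodes OX40, and Vav2 (0.95). The genes most like Ikzf2 were Vav2 (0.96), Foxp3, Il2ra, Ahcyl2 and Cd83 (0.91). Most like Ikzf4 were Phtf2 (0.95), Med7, the receptor gene Tgfbr1 (0.88), Cerk and Cd83 (0.85). Most like Ikzf3 were Septin8 (0.98), Peak1, Tmem140, Dnaja4 and Aopep (0.97). Most like Ikzf1 were Gtf2i (0.91), Lpar6, Ehd3, Atp6v0a2 and Rasa3 (0.90). For Ikzf5, Kif16b (0.88), Fbxo3, Tmod3, Nptn and Rab18 (0.86) came first, but on the quantile scale their correlations were 0.73 to 0.80. These correlations are of the deposited values, which hold the upward shift of the fat arrays. On the quantile scale Ikzf2 ranked 12 for Foxp3 (0.905), Tmem140 ranked 9 for Ikzf3, Cerk ranked 8 for Ikzf4 and Lpar6 ranked 6 for Ikzf1.

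Genes known from the literature as bound and controlled by Foxp3 were mostly higher in Treg of lymph node and thymus and mixed in fat. Of the 20 listed, 18 were tested. The list holds genes raised by Foxp3 and genes lowered by it, so a count by direction is no measure of Foxp3 action. In lymph node 11 were higher and 1 lower in Treg, with a median log2 change of 1.37, beside -0.02 over all genes, and 66.7% of the targets were called against 4.32% of all genes. In thymus 10 were higher and 1 lower, with a median of 1.32, beside -0.02, and 61.1% were called against 4.98%. In fat 3 were higher and 7 lower, with a median of -0.17, beside 0.01, and 55.6% were called against 11.5%. The genes higher in Treg of all 3 tissues were Il2ra, Ctla4, an inhibitory receptor (2.44 in fat, 3.34 in lymph node, 4.57 in thymus), and Tnfrsf18, which encodes GITR (1.32, 1.43 and 1.60). Pde3b, a phosphodiesterase gene that Foxp3 represses, was lower in Treg of all 3 (-1.45, -3.90 and -2.28).

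Several targets with a large Treg effect in lymph node had little of it in fat. Such an effect depends on the levels of both cell types. Between fat and lymph node the median log2 change of the 18 targets was 0.62 in Tconv and -0.03 in Treg, against -0.03 and 0.01 over all genes. Itgae, the integrin chain CD103, averaged an intensity of 1819 in lymph node Treg against 103 in Tconv (4.14), and its change in fat was 0.47. Socs2, a brake on STAT5 signalling, changed by 4.24 in lymph node and -0.37 in fat, and after quantile normalization its fat Tconv lay above lymph node Tconv by 5.34. The receptor genes Gpr83 (3.12 and -0.13) and Nrp1 (2.87 and 0.21) and the ectonucleotidase gene Entpd1 (2.35 and 0.40) did likewise. Nt5e, which encodes CD73, was higher in lymph node Treg by 2.02 and lower in fat Treg by -1.02. Ifng, the type 1 cytokine, averaged 575 in fat Treg against 13813 in fat Tconv (-5.02). Tested as a difference of effects, 9 of the 18 targets were lower and 1, Pde3b (2.45), was higher in fat than in lymph node (2 higher with the block), or 55.6% of them against 4.85% of all genes. The lower ones included Ifng (-5.54), Socs2 (-4.61), Itgae (-3.66), Gpr83 (-3.25), Nt5e (-3.04) and Nrp1 (-2.66). Foxp3 itself differed by -0.19 in that contrast, and signed counts over genes of both kinds do not measure its action. The count of targets with a lower effect in fat ran from 7 to 10 when 1 array was left out. Without the first fat Treg array or the third fat Tconv array, 4 targets instead of 7 were lower in fat Treg, and Nt5e, Il2 and Zap70 lost the call in both of these fits.

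**Figure D5:**
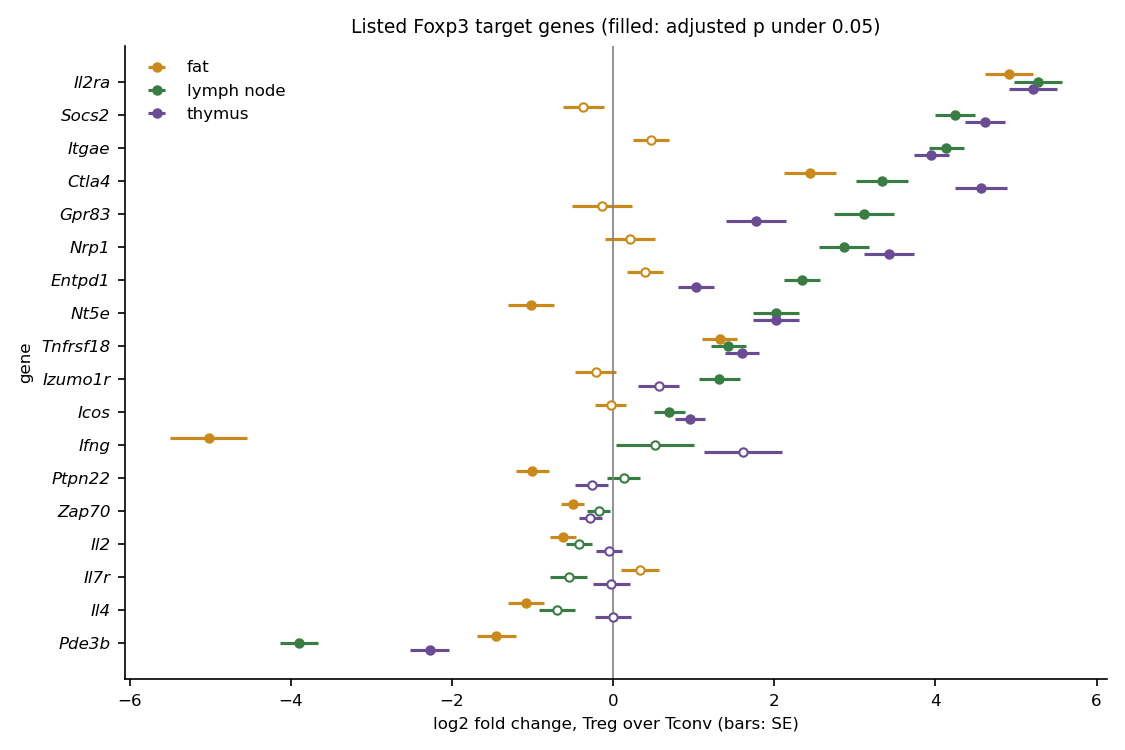
Log2 fold change of Treg over Tconv for the 18 tested genes known as Foxp3 targets, in fat, lymph node and thymus, with bars of 1 SE; filled points have an adjusted p under 0.05. Il2ra, Ctla4 and Tnfrsf18 lie right of 0 in all 3 tissues, while Socs2, Itgae, Gpr83 and Nrp1 lie right of 0 in lymph node and thymus and near 0 in fat.

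Genes of proteins known to bind Foxp3 or act with it, called partners here, split by tissue. Of 33 listed, 30 were tested. In fat Treg 5 were higher and 6 lower (median -0.06), in lymph node Treg 4 higher and 3 lower (0.00), and in thymus Treg 3 higher and 1 lower (-0.08, or 5 and 2 calls with the block), against medians of 0.01, -0.02 and -0.02 over all genes. The partners called were 36.7% of those tested in fat, 23.3% in lymph node and 13.3% in thymus, against 11.5%, 4.32% and 4.98% of all genes. Higher in fat Treg were Gata3, the type 2 helper factor (2.79 ± 0.22, 6.94-fold), Irf4 (2.40 ± 0.26), Rel (1.90 ± 0.25), Rora (1.60 ± 0.26) and Rela (0.73 ± 0.16). Lower there were Tbx21, which encodes T-bet (-4.57 ± 0.28), Eomes (-3.33 ± 0.29), the chromatin organiser Satb1 (-3.01 ± 0.34), Lef1 (-1.28 ± 0.21), Ezh2 (-0.94 ± 0.21) and Nfatc2 (-0.84 ± 0.15). Rora was higher in Treg of lymph node (1.35) and thymus (1.70) as well, and Irf4 in lymph node (1.87) but not thymus, where its Treg effect was lower than in lymph node by -2.09. Gata1 (1.68) and Xbp1 (0.95) were higher and Lef1 (-1.32), Satb1 (-1.29) and Eomes (-1.14) lower in lymph node Treg. Eomes went the other way in thymus Treg (1.83), and the difference of its effects, thymus minus lymph node, was 2.97. Satb1 lost its lymph node call without any 1 of the 6 arrays, Eomes without the first or the third Treg or the second or the third Tconv array, where 1 partner was lower instead of 3, and Xbp1 without any but the second Tconv array. Xbp1 lost its thymus call without the first Treg or the third Tconv array. The partner lower in thymus Treg, Hdac7, a deacetylase (-0.44), lost its call without the first or second Treg or the first or the third Tconv array.

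Genes that act on the Foxp3 locus or its induction moved as follows. Of 31 listed, 29 were tested. In fat Treg 3 were higher and 4 lower (6 and 6 with the block), with a median of -0.15. In lymph node Treg 3 were higher and 1 lower (4 and 2 with the block), with 0.08, and the lower one, Satb1, lost its call without any 1 of the 6 arrays. In thymus Treg 4 were higher and 2 lower (7 and 2 with the block), with 0.00. These were 24.1%, 13.8% and 20.7% of the regulators, against 11.5%, 4.32% and 4.98% of all genes. Il2rb, the receptor chain through which interleukin-2 signals, was higher in Treg of lymph node (2.57 ± 0.16) and thymus (1.88 ± 0.16), and its effect in fat was smaller than in lymph node by -2.35 ± 0.22. Tgfbr1, a receptor chain for TGF-beta, was higher in lymph node (1.76) and thymus (1.31), as was the orphan receptor gene Nr4a3 (1.21 and 1.48), although Nr4a3 lost its lymph node call without any but the second Tconv array. Lower in thymus Treg were Tet1, a DNA demethylase (-1.02), and Tgfbr2 (-0.91), and 1 of them instead of 2 was called without any thymus array but the third Treg one. In fat Treg, Rel, Nr4a1 (1.17 ± 0.20) and Creb1 (0.89 ± 0.23, lost without the third Treg or first Tconv array) were higher, and Bach2, which holds back effector genes (-3.27 ± 0.26), and Satb1 were lower.

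Between fat and lymph node Treg, 8 of these 29 regulators were higher and 8 lower. The orphan receptors Nr4a2 (4.09 ± 0.23), Nr4a1 (4.04 ± 0.21) and Nr4a3 (2.96 ± 0.32) and the NF-kappaB subunit Rel (3.01 ± 0.24) were higher in fat. Bach2 (-4.40 ± 0.24), Satb1 (-3.20 ± 0.34), Foxo1 (-1.77 ± 0.21) and Tgfbr1 (-1.66 ± 0.22) were lower in fat. Over all genes 34.2% were called in that contrast. Foxp3 itself differed by 0.43 ± 0.27 there.

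Subunits of the NuRD complex and other corepressors of Ikaros family proteins were seldom called between Treg and Tconv, as were genes in general. All 23 listed were matched and 22 tested. In fat 1 was higher and 1 lower (3 and 2 with the block), in lymph node none was called by limma with or without the block (0 at an unadjusted p under 0.05), and in thymus none was called (3 at an unadjusted p under 0.05), or 3 higher and 1 lower with the block. The share called in fat was 9.09%, near the 11.5% of all genes, and 4.32% and 4.98% of all genes were called in lymph node and thymus. The medians were -0.02, 0.13 and 0.14. The gene higher in fat Treg was Ctbp2, a corepressor, with a mean intensity of 373 in fat Treg against 55.7 in fat Tconv (2.72 ± 0.21, 6.61-fold), and it exceeded its lymph node level in Treg by 3.12 ± 0.21. The lower one was Ezh2, a histone methyltransferase, and 2 were lower without the third fat Treg array. In thymus Treg 5 were higher than in lymph node Treg (3 without the first or second lymph node Treg array, 2 without the first thymus Treg array), or 22.7% of them against 11.9% of all genes, including Ezh2 (1.53 ± 0.19) and Hdac2 (0.95 ± 0.22).

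Of the 3 other Foxp genes, 1 was higher in fat Treg than in fat Tconv, or 33.3% against 11.5% of all genes. Foxp1, which is needed for naive T cell quiescence, changed by -0.21 in fat, -0.12 in lymph node and -0.31 in thymus, without a call. It was lower in fat than in lymph node by -1.14 ± 0.30 in Treg and -1.02 ± 0.30 in Tconv, a Tconv call lost without the first fat or the second or the third lymph node array. Foxp2 was higher in fat Treg by 0.82 ± 0.16, at a mean intensity of 108 in Treg against 61.7 in Tconv, the latter under the filter level of 65.9. It exceeded its lymph node level in Treg by 0.66 ± 0.15. In fat against lymph node, 34.2% of all genes were called in Treg and 22.5% in Tconv. Foxp4 changed by -0.04, -0.17 and -0.03 between Treg and Tconv of fat, lymph node and thymus, without a call.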

How the data were processed

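RNA was amplified in 2 rounds per the labels' protocols. The authors deposited RMA intensity values on a linear scale, made with RMA in GenePattern per the series' design text; the RMA version, and which arrays were normalized together, are not given in the sources used here. Probe sets were named through the platform annotation: 34945 had 1 symbol, 932 several, 9160 none and 64 were controls. Log2 intensities were fitted with limma 3.58.1 (R 4.3.3; lmFit, eBayes), 1 coefficient per group over 18 arrays, 12 residual and 4.83 prior degrees of freedom. Alternatives were other scales, no filter, fewer arrays, blocks, other probe sets and each array left out. The fits were tested on simulated data. Arrays give no depth; 3 per group limit precision. No 2 arrays held the same values (largest correlation 0.991). Treg and Tconv arrays of the same number deviated together within a tissue (r 0.35 to 0.68 over 12821 genes), so the numbers pair them; fat, lymph node and thymus arrays share only a number. Members, lists and rules were chosen with earlier results of these data known. Named genes were the 6 members, the 5 most correlated genes of each, and called list members, at least the 2 largest per direction. Some listed genes are not reported here.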

Additional observations from a re-analysis of the deposited data

Results flagged for a closer look

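The Treg effect on Ikzf3 (Aiolos) in fat minus that in lymph node was -0.87 ± 0.24 on the log2 scale (adjusted p = 0.0485, limma). It was flagged because the difference between the tissues was itself tested and called. The 3 fat pairs gave -0.10, 0.30 and -0.12, and the 3 lymph node pairs 1.30, 0.54 and 0.84, so that every lymph node pair lay above every fat pair. The dimmer Aiolos probe sets gave 0.15 and 0.22.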

How the results depend on the processing

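Of 20 called results on the 6 genes, 16 kept direction and call in every alternative other than another probe set, and 4 lost the call in at least 1 (Ikzf3 in thymus, in Tconv of thymus against lymph node and in the difference of effects, and Ikzf1 in Treg of fat against lymph node); 9 of 34 uncalled ones gained it somewhere. The Ikzf3 difference of effects had adjusted p = 0.0545 with no filter, 0.101 after quantile normalization and 0.0773 on the 12 arrays. Signs turned with probe sets dimmer than those used. Ikzf1 1421303_at gave 0.21 in fat and 0.21 in Treg of fat against lymph node, and Ikzf2 1421643_at gave 0.59 there. Ikzf4 1460664_at gave -0.064 in fat and -0.022 in lymph node. Ikzf3 1441088_at gave -0.064 in thymus. It gave 0.077 in Tconv of thymus against lymph node and 0.15 for the difference of effects, where 1453378_at gave 0.39 and 0.22. The cause was not tested. The block of paired arrays added calls for Ikzf1 in lymph node, thymus and the fat difference of effects and changed no other call of the 6 genes within a tissue. Genes called with the replicate block numbered 2652 in fat, 1028 in lymph node, 1528 in thymus, 1405 in Tconv of fat against lymph node, 767 in Treg of thymus against lymph node, and 1416 and 136 for the differences of effects (fat, thymus). As deposited, 7018 were called in Treg and 5425 in Tconv of fat against lymph node. Only the compared arrays gave 383 in thymus and 754 in Treg of thymus against lymph node, with fewer arrays in the fit. Leaving out 1 array gave 1104 to 1593 in fat, 388 to 464 in lymph node, 437 to 976 in thymus (highest without the third Treg array), 3453 to 4231 and 2166 to 2882 for fat against lymph node in Treg and Tconv, 948 to 1830 and 769 to 1062 for thymus against lymph node (948 without the first thymus Treg array), and 468 to 766 and 24 to 69 for the differences of effects, the last lowest at 24 without the second thymus Tconv and 25 without the third lymph node Tconv array, and highest without the third thymus Treg array. Replicate numbers of different tissues pair nothing, and with them as a block Ikzf2 in Treg of fat against lymph node had adjusted p = 0.00966. With file blocks it had 0.00968, and Foxp3 0.0322. Of 223 called results on list genes, 149 kept the call in every alternative, 74 lost it in some and none reversed.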
